A study of Mus musculus with 32 samples.

Results

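The DNA replication and mitosis genes described here are 41 genes that load and fire replication origins, copy DNA, drive the cell cycle and separate chromosomes. They were studied as open chromatin in mouse haematopoietic stem and progenitor cells (HSPCs). A peak belonged to a gene if the nearest autosomal protein-coding gene model (20661 models, GRCm38) within 50 kb was one of the 41. This rule uses position only, and it gave 55 of the 23554 tested regions. Every one of the 41 genes had at least 1 such region: 33 genes had 1, and 8 had several. At 9 regions, each of a different gene, a neighbouring gene was equally near (Orc1 and Prpf38a, Mcm4 and Prkdc, Mcm7 and Ap4m1, Cdc45 and Ufd1, Pcna and Cds2, Cdk2 and Pmel, Foxm1 and Rhno1, Aurka and Cstf1, and an inner region of Rb1 with Lpar6), so those peaks cannot be given to one gene of the pair.

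Before a cell divides, the origin recognition complex with Cdc6 and Cdt1 loads the Mcm2 to Mcm7 helicase onto origins, and Cdc45 and the GINS complex then turn it on. Cyclins with their kinases time these steps. E2F transcription factors, held back by Rb family pocket proteins, drive many genes of S phase entry, while complexes with Mybl2 or Foxm1 bind CHR elements of the genes of mitosis, whose CCAAT boxes are bound by NF-Y. Long-term stem cells are mostly quiescent, and inflammatory signals such as LPS (lipopolysaccharide, a cell wall component of bacteria that activates Toll-like receptor 4) can push them into the cycle. ATAC-seq marks open DNA by transposase insertion. A peak at a promoter does not measure the transcription of its gene.

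The sorted cells were bone marrow HSPCs (lineage-negative, cKit-positive, Sca1-positive) of the wild-type CD45.1+/2+ graft. All recipients were lethally irradiated CD45.2 C57BL/6J mice that received 800000 of these wild-type marrow cells. The mice called AF9-experienced also received 200000 CD45.1 marrow cells with an inducible human MLL-AF9 leukaemia fusion (homozygous hMLL-AF9 and rtTA). The naive mice received 200000 CD45.1 cells without the fusion but with homozygous rtTA. At 6 to 8 weeks after transplantation, leukaemia was started with doxycycline for 5 weeks and allowed to regress without it for 4 weeks. PBS or LPS was then given, and marrow was taken 24 hours later. The sources used here do not say separately whether the naive mice received doxycycline, nor the dose of LPS, the age of the mice or whether mice were pooled. The cells measured never carried the fusion: in AF9-experienced mice they shared a marrow with leukaemia, and they are not leukaemia cells.

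The naive mice gave 4 biological replicates after PBS and 3 after LPS, and the AF9-experienced mice 4 and 5. Each biological replicate has 1 peak list for its 2 technical libraries, called a library below. Lists held 19448 to 88816 peaks, and 3 stood apart as short (naive PBS replicate 1, AF9-experienced PBS replicate 1 and naive LPS replicate 3). Each list was therefore shortened to its 19100 strongest autosomal peaks, and a region's level in a library is the percentile rank of its peak, where 100 is the strongest and 0 means no peak among the 19100. Median fold enrichment of these 19100 peaks, which are all autosomal peaks of the shortest list but only the strongest of the others, ran from 5.07 to 19.4. Among lists other than the short ones it was lower after LPS (9.16 to 13.6) than after PBS (13.9 to 19.4). At least 2 chromosome Y peaks were listed in all 3 naive LPS libraries and in AF9-experienced LPS replicates 1 and 2, and in no PBS library. The part that depth, signal over background or the sex of cells plays in the differences after LPS was not tested beyond the alternatives given with them. Of 12 HSPC marker genes, 10 had a tested region at a gene end, and the median level over the 12 was 49.3. Ly6a, which encodes the Sca1 of the sort, and Gata2 did not. Neutrophil (0 of 7), B cell (0 of 5), T cell (0 of 5) and mast cell or basophil (0 of 3) markers had none, 1 of 4 monocyte-macrophage markers had one (Adgre1, 2.37), and Klf1 (87.0) and Epor (70.6) did among 3 autosomal erythroid markers. Of 3 endothelial markers, Pecam1 and Kdr had one, at 18.2 or lower. The summed HSPC marker level was between 535 and 543 in the 4 group means, within which Flt3 stood at 90.7 after PBS and 79.4 after LPS in naive mice and Meis1 at 40.7 and 49.7. The summed erythroid level was 149.5 and 160.4 in naive and 157.5 and 162.4 in AF9-experienced mice after PBS and LPS. The endothelial sum was 40.4 and 5.79, then 29.5 and 31.5, and the monocyte-macrophage sum 0 and 9.72, then 0 and 1.75. The part of these markers in the differences after LPS was not tested.

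RefSeq promoters (GRCm38.p6, 250 bases before to 50 after the start) were found for 33 of the 41 genes, 36 promoters in all. No entry was held for Aurkb, Ccna2, Ccne2, Foxm1, Gins2, Mcm4, Rb1 and Tpx2. The promoters below were chosen because the results turn on these genes. Mki67 carries the region called after LPS, and Mcm5 and Cdk1 came next. Top2a and Cdk1 show the mitotic elements, and Rrm2 had no peak at its start. E2f1 is one of the set genes and has no match in this window. Its peak summit lay outside the window, at positions -625 to -619 from the start used, in the 16 libraries. The printed bases therefore miss the E2f1 summit, and the lack of a match does not show that E2f1 has no E2F site. Each run gives the 250 bases before the start, 5′ to 3′ on the gene's strand. Capitals mark matches, on either strand, to E2F sites (TTTCCCGC, TTTGGCGC, TTTGCCGC or TTTCGCGC), CHR elements (TTTGAA or TTCGAA) and the CCAAT box (CCAAT).
Mki67, chr7:135716380-135716629, minus strand: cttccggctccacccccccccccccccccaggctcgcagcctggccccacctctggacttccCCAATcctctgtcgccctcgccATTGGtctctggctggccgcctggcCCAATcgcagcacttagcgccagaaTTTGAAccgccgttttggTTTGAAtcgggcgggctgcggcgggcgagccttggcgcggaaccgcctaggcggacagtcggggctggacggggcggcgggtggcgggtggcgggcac
Mcm5, chr8:75109259-75109508, plus strand: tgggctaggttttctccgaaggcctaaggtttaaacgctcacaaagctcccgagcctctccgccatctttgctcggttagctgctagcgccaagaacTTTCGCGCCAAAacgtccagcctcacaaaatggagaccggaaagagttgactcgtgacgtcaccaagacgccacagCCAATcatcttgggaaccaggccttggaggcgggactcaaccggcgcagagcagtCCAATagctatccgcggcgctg
Cdk1, chr10:69352913-69353162, minus strand: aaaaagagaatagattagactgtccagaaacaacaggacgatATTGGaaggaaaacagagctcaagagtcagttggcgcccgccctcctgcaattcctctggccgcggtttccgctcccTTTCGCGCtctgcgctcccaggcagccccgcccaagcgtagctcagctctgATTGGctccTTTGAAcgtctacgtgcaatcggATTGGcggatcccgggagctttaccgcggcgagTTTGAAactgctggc
Top2a, chr11:99024190-99024439, minus strand: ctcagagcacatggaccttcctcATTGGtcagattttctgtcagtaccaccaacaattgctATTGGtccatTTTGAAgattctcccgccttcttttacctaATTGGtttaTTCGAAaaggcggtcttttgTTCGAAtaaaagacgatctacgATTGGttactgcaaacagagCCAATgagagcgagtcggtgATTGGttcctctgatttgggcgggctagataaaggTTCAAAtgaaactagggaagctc
E2f1, chr2:154569427-154569676, minus strand: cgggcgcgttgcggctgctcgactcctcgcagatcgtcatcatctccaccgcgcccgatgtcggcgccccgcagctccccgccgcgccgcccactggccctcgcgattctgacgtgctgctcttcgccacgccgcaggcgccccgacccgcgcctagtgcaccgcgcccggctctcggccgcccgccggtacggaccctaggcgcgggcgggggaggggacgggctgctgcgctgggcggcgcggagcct
Rrm2, chr12:24708004-24708253, plus strand: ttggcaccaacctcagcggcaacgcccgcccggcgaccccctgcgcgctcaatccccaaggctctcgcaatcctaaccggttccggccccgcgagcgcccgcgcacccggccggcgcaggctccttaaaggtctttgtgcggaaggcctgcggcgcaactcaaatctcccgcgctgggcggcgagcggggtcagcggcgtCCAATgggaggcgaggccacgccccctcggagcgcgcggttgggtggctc

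In Mcm5, a helicase subunit, overlapping E2F matches have their first base at positions -153 and -149 from the start and share bases. Cdk1, the kinase of mitotic entry, held 1 E2F, 2 CHR and 3 CCAAT matches. Top2a, which untangles sister DNA, held 4 CHR and 6 CCAAT matches and no E2F match. Mki67, whose protein coats mitotic chromosomes and is the common marker of cycling cells, held 2 CHR and 3 CCAAT matches.

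Across the 36 member promoters, 33.3% held an E2F match, against 2.85% of the 20084 promoters of all coding genes. A CHR match was in 41.7%, against 17.0%, and a CCAAT box in 72.2%, against 38.1%. At least 2 CCAAT boxes were found in 47.2%, against 12.8%. The 80 promoters of other replication and mitosis genes lay between for E2F (16.2%) and CCAAT (56.2%), and at 43.8% for CHR. By role, an E2F match was found for 7 of 9 genes of origin licensing and the helicase, 0 of 5 of DNA synthesis, 2 of 6 cyclins and kinases, 3 of 6 factors and pocket proteins and 0 of 7 mitotic genes. In the same order, 3, 1, 2, 3 and 6 genes held a CHR element and 7, 4, 4, 3 and 6 a CCAAT box. E2f1 was counted as without any match, from a window that does not hold its peak summit. Differences between roles were not tested. The member promoters were also richer in CpG, with a median of 24.5 CpG per 300 bases against 14 in all coding genes. These matches are letters in a window, not measured binding.

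**Figure D1:**
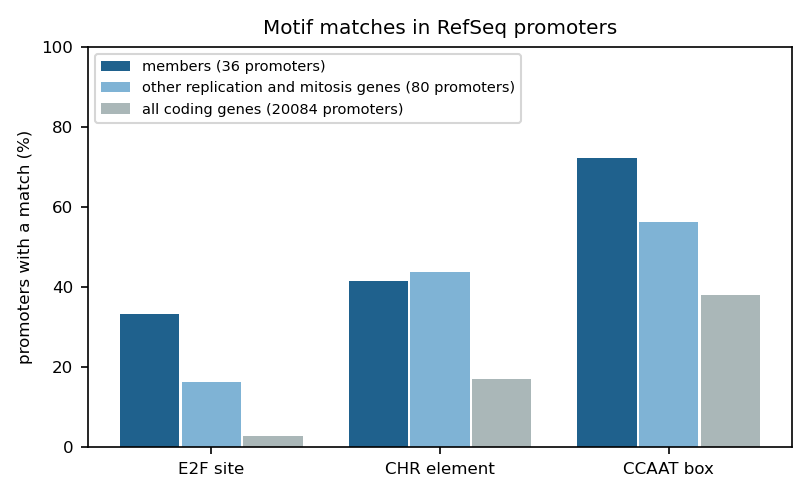
Share of RefSeq promoters (%, vertical axis) with at least 1 match to an E2F site, a CHR element or a CCAAT box, for the 41 genes, for other replication and mitosis genes and for all coding genes. E2F matches were in 33.3% of member promoters and 2.85% of all.

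Start sites of these genes were open in nearly every library. Of the 41 genes, 39 had a tested region within 1 kb of the RefSeq start or of an end of the gene model, and at 36 of the 39 the strongest such region was among the 19100 strongest peaks of all 16 libraries. Their median level was 81.3. For comparison, 73.1% of all 9968 gene-end regions were present in all 16 libraries, with a median level of 66.1. That background takes every gene-end region, not the strongest of each gene. Among regions with a mean level of at least 50 the shares were close. They were 100% of 34 member regions (median 84.0) and 98.0% of 6489 gene-end regions (median 79.5). In the full lists a start-site or gene-end peak was found for 38 to 40 of the 41 genes in each library, whatever its group. Peak summits lay close to the starts: at 24 of 31 genes with a RefSeq start, the median summit was within 150 bases of it, and at 25 of the 31 it lay upstream.

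**Figure D2:**
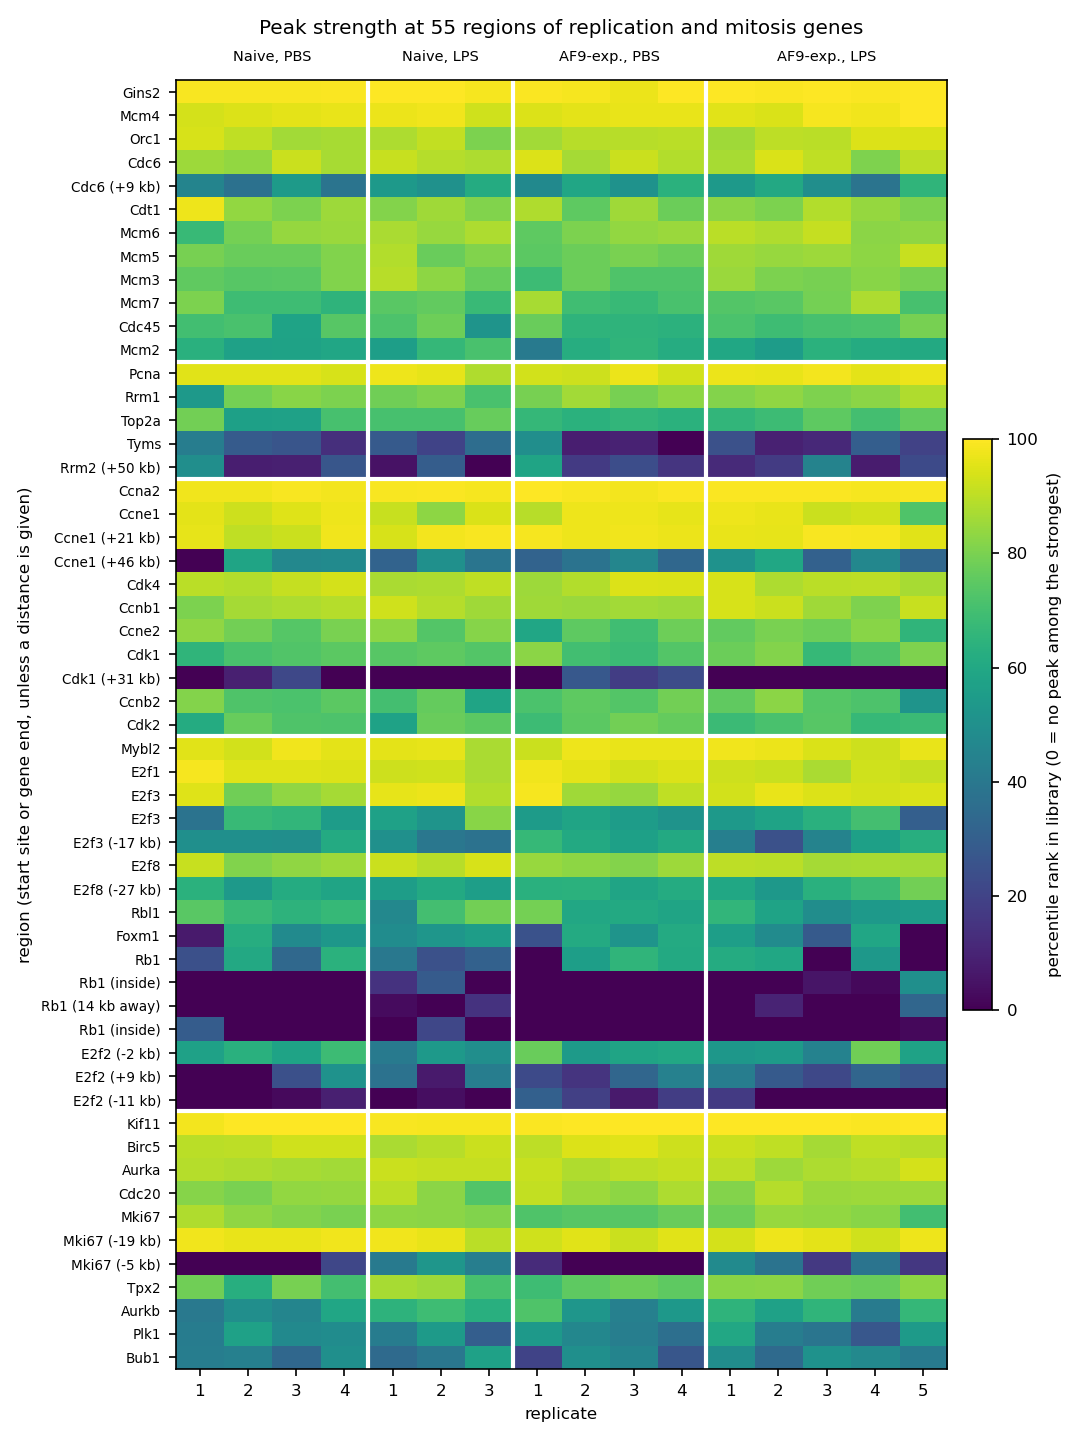
Percentile rank (colour, 0 to 100) at the 55 regions (rows, by role, with the distance to the nearest RefSeq start where a region is not at a start or gene end) in the 16 libraries (columns, by group and replicate). Kif11, Ccna2 and Gins2 lie above 97 in all 16 libraries, and the Mki67 region 5.07 kb from the gene (labelled -5 kb) has low ranks (dark) in the PBS libraries.

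Origin licensing and helicase genes all had a start-site or gene-end region, with mean levels over 16 libraries from 60.2 (Mcm2) to 99.2 (Gins2), and a median of 83.3. Gins2, a GINS subunit, ranged only from 97.2 to 99.9. Mcm2, a helicase subunit, was the weakest of the 11, at 59.4 ± 2.86 after PBS and 64.7 ± 7.86 after LPS in naive mice (SD, n = 4 and 3) and at 57.6 ± 11.4 and 60.2 ± 3.21 in AF9-experienced mice (n = 4 and 5). The same order and n hold for all means ± SD below. The groups overlapped at Mcm2, with the lowest value, 40.6, in the short AF9-experienced PBS list.

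The genes of DNA synthesis and nucleotide supply were less even. Pcna, the sliding clamp of DNA polymerases, had a mean of 95.2 and a range from 88.1 to 98.1, with 95.1 ± 0.720 and 94.0 ± 5.13 in naive and 93.9 ± 2.06 and 96.9 ± 0.870 in AF9-experienced mice. Top2a stood at 66.0 ± 10.7 and 72.8 ± 3.38 in naive mice and at 64.9 ± 1.37 and 71.2 ± 4.40 in AF9-experienced mice. Tyms, thymidylate synthase, was the weakest of the 39, with a mean of 22.3 and a range from 0 to 49.3, and its groups overlapped (27.8 ± 11.9 and 28.0 ± 7.82, then 16.8 ± 22.1 and 19.1 ± 8.74). Rrm2, the regulated subunit of ribonucleotide reductase, had no peak within 1 kb of its start or gene ends in any of the 16 full lists used here. The peak nearest to the Rrm2 start lay 17.3 to 50.2 kb away, and its 1 tested region, 44.1 kb beyond the gene model, ranged from 0 to 58.3. Whether peaks at Rrm2 are missing from the lists could not be checked, so closed chromatin at its start cannot be inferred.

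Cyclins and their kinases were strong throughout, from 71.2 (Cdk2, the kinase of S phase entry) to 98.9 (Ccna2, cyclin A2). Cdk2 ranged from 57.5 to 78.6 and Ccna2 only from 97.9 to 99.7. Ccnb1, cyclin B1, stood at 85.8 ± 3.71 and 89.1 ± 3.46 in naive mice and at 85.5 ± 0.581 and 88.7 ± 5.55 in AF9-experienced mice. The Cdk1 start site was at 71.0 ± 4.04 and 74.2 ± 0.859, and at 73.3 ± 6.46 and 75.8 ± 6.07. At both genes the groups overlapped. Ccne1, cyclin E1, also had a strong region 11.8 kb beyond its gene model, on the side of its 3′ end, with a mean of 96.5, above the 92.6 at its start.

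The transcription factors and pocket proteins ranged from 39.7 (Rb1) to 95.2 (Mybl2), with E2f1 at 93.3. E2f3, which is transcribed from alternative starts, had 1 region at each of its RefSeq starts, with means of 91.1 and 57.1. E2f2 had no tested region within 1 kb of its starts or ends, and its strongest region (chr4:136177314-136178822), inside the gene, had a mean of 58.1. The full lists held an E2f2 start or end peak in 14 of 16 libraries. Rb1, the retinoblastoma pocket protein, ranged from 0 to 65.3 at its gene end (39.7 on average) and was at 0 in AF9-experienced PBS replicate 1 and in AF9-experienced LPS replicates 3 and 5. Foxm1, a mitotic forkhead factor, ranged from 0 to 62.2, with its low values in naive PBS replicate 1 (7.09), AF9-experienced PBS replicate 1 (25.2), AF9-experienced LPS replicate 3 (28.2) and AF9-experienced LPS replicate 5 (0). At both genes the groups overlapped.

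Among mitotic kinases, spindle and exit genes, Kif11, the motor that pushes spindle poles apart, was the strongest member of all (mean 99.5, lowest value 98.2). Bub1, a spindle checkpoint kinase, was the weakest of the role, with a mean of 41.5 and a range from 20 to 57.1. Plk1, the kinase of mitotic entry and spindle assembly, was near it at 45.2. The Mki67 start site stood at 83.3 ± 3.56 and 82.3 ± 1.15 in naive mice and at 74.3 ± 1.96 and 79.6 ± 6.02 in AF9-experienced mice.

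After LPS, 1 of the 55 regions was called higher in naive mice and the same region in AF9-experienced mice. No member region was called lower (limma, Benjamini-Hochberg adjusted p under 0.05 over all 23554 regions). Of all tested regions, 3.22% were called in naive mice and 5.18% in AF9-experienced mice, in either direction. The members' share was thus near or under the background in both. At start sites and gene ends, 0 of 40 member regions were called in each contrast, where 1.02% and 1.76% of all gene-end regions were called. At an unadjusted p under 0.05 these were 4 of 40 (10%) in naive and 3 of 40 (7.5%) in AF9-experienced mice, near the 9.42% and below the 11.5% of all gene-end regions. The median difference over the 55 regions was 0.49 percentile points in naive and 1.21 in AF9-experienced mice, beside 0.00 and -0.18 over all tested regions.

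The called region lies upstream of Mki67, 5.07 kb beyond its gene model (chr7:135721523-135722467, minus-strand gene). In naive PBS its levels were 0, 0, 0 and 21.4, and in naive LPS 41.2, 52.5 and 42.9. In AF9-experienced PBS they were 12.3, 0, 0 and 0, and in AF9-experienced LPS 48.0, 37.9, 16.8, 38.6 and 16.4. Every LPS library lay above every PBS library of its own background. The difference was 40.19 points in naive mice (SE 9.0, limma adjusted p = 0.0142) and 28.46 in AF9-experienced mice (SE 7.91, adjusted p = 0.0380). The difference between both LPS effects did not pass the test (-11.73, SE 11.98, adjusted p = 1).

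Most libraries of both treatments held this Mki67 peak. In the full lists this region held a peak in 15 of 16 libraries, all but naive PBS replicate 1. As a percentile of each full list it stood in naive mice at 30.4, 58.4 and 80.4 after PBS. After LPS it stood at 85.1, 85.7 and 71.9, and these overlapped. This percentile depends on list length. The 71.9 (naive LPS replicate 3) was rank 10900 of 38762 autosomal peaks. The 80.4 (naive PBS replicate 4) was rank 15006 of 76623. In AF9-experienced mice it stood at 33.6 to 68.9 after PBS and at 73.8 to 88.3 after LPS, without overlap. Counted from the strongest peak, its rank was 9064 to 15974 in the 8 LPS lists and 15006 to 43127 in the 7 PBS lists. In naive mice alone the ranks were 9064 to 11241 after LPS and 15006 to 43127 after PBS, without overlap. The peak's own fold enrichment overlapped between treatments, from 4.12 to 12.9 after PBS and from 6.0 to 14 after LPS. Ranked by fold enrichment instead of -log10 p, the difference was 38.8 in naive mice (adjusted p = 0.179) and 21.9 in AF9-experienced mice (adjusted p = 0.172). As presence in the full list it was 25 (adjusted p = 0.720) and 0 (adjusted p = 1).

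The naive call was lost without naive PBS replicate 3 (adjusted p = 0.0531) or naive LPS replicate 2 (0.0782). The AF9-experienced call was lost without naive PBS replicate 3 (0.0503), AF9-experienced PBS replicate 2 (0.103), 3 (0.117) or 4 (0.113), or AF9-experienced LPS replicate 1 (0.0835), 2 (0.0774) or 4 (0.0838), with differences from 24.4 to 28.5. Without the libraries that hold at least 2 chromosome Y peaks the AF9-experienced difference was 20.9 (adjusted p = 0.125), and in fits of the 2 groups alone the adjusted p was 0.0761 in naive and 0.0592 in AF9-experienced mice. Without the 3 short lists, and with 59609 peaks in each list, the region was called in both backgrounds, at 33.7 (adjusted p = 0.0359) and 30.9 (0.0134). That setting leaves only replicates 1 and 2 of naive LPS, and it called 6.73% and 10.5% of all regions.

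The other regions of Mki67 gave no call. Its start site differed by -0.99 (SE 3.4) after LPS in naive mice and by 5.32 (SE 2.99) in AF9-experienced mice. A region 19.1 kb upstream, among the strongest of the members at 89.6 to 98.0, differed by -2.42 (SE 2.02) and 1.56 (SE 1.77). The values thus separated PBS from LPS at the middle region and overlapped at the regions on either side of it.

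**Figure D3:**
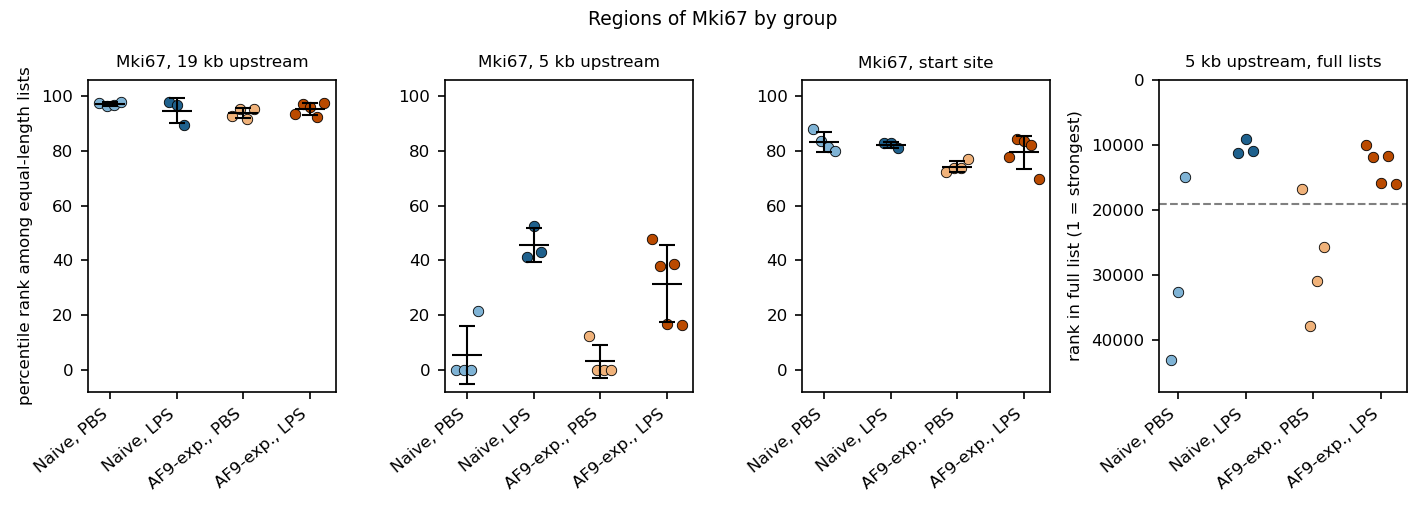
Levels of the 3 Mki67 regions (percentile rank, points are libraries, bars mean ± SD, by group) and, at right, the rank of the 5.07 kb region in the full lists (1 is strongest, lists differ in length, dashed line at 19100, naive PBS replicate 1 without a peak). LPS libraries lie between 16.4 and 52.5 at the 5.07 kb region and PBS libraries between 0 and 21.4.

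In AF9-experienced mice, 2 helicase subunits had the next smallest p-values among regions with higher levels after LPS. Mcm5 stood at 74.8, 77.5, 79.7 and 77.5 in AF9-experienced PBS and at 85.9, 84.6, 85.2, 83.1 and 91.5 in AF9-experienced LPS. These groups did not overlap, and the difference of 8.67 (SE 2.65) missed the threshold (limma adjusted p = 0.0603). In naive mice Mcm5 was at 79.4, 77.2, 77.1 and 81.0 after PBS and at 88.4, 77.1 and 81.0 after LPS, and these overlapped (difference 3.49, SE 3.02). The Mcm5 difference passed the threshold in AF9-experienced mice in the fit of the 2 groups alone (adjusted p = 0.0486), with median fold enrichment as a covariate (0.0367), with library weights (0.0234), without naive PBS replicate 1 (0.0452) and without naive LPS replicate 1 (0.0473).

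Mcm3 went from 72.8 ± 3.75 to 81.2 ± 2.31 in AF9-experienced mice (difference 8.41, SE 3.0, adjusted p = 0.112) and from 76.4 ± 3.25 to 83.0 ± 6.26 in naive mice (6.62, SE 3.41, adjusted p = 0.355). All of Mcm2 to Mcm7 had a positive difference in both backgrounds, from 0.62 to 7.60 in naive and from 1.21 to 8.67 in AF9-experienced mice, and none passed the test. At an unadjusted p under 0.05 only Mcm3 and Mcm5 did, in AF9-experienced mice. Positive differences were found for 8 of 11 licensing and helicase genes in naive and 10 in AF9-experienced mice, for 3 and 4 of 4 of DNA synthesis, and in both backgrounds for 4 of 8 cyclins and kinases, 3 of 7 factors and pocket proteins and 4 of 9 mitotic genes. Of all 9968 gene-end regions, 5266 and 4452 had a positive difference.

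E2F genes had differences in both directions, and none passed the test. At the E2f1 start, naive PBS levels were 98.7, 95.2, 95.1 and 94.6, against 92.4, 92.8 and 87.3 after LPS. In AF9-experienced mice they were 97.8, 95.8, 93.0 and 94.7, against 92.2, 91.6, 87.2, 92.8 and 91.3. PBS and LPS did not overlap in either background, and the differences were -5.08 (SE 2.02, limma adjusted p = 0.201) and -4.32 (SE 1.78, adjusted p = 0.176). Ranked by fold enrichment the E2f1 differences turned to 19.8 (adjusted p = 0.534) and 31.0 (adjusted p = 0.175), so the direction at E2f1 depends on the measure of strength.

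E2f8, an atypical E2F that represses, differed by 6.30 (SE 2.53, adjusted p = 0.204) in naive and 4.22 (SE 2.22, adjusted p = 0.310) in AF9-experienced mice. The stronger E2f3 start differed by 8.17 (SE 3.42, adjusted p = 0.228) and 4.72 (SE 3.0, adjusted p = 0.416). Without naive PBS replicate 1, the naive differences at E2f8 (8.36, adjusted p = 0.0417) and E2f3 (11.3, adjusted p = 0.0430) passed the threshold. The region inside E2f2 stood at 57.2, 63.5, 58.0 and 68.6 in naive PBS and at 40.6, 54.1 and 49.5 in naive LPS, a difference of -13.76 with an SE of 7.06 (adjusted p = 0.352). Another, 16.8 kb upstream of E2f3 differed by -9.91 (SE 7.51) in naive and -14.93 (SE 6.60) in AF9-experienced mice.

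Lower levels after LPS were also seen at distant regions. A region 13.3 kb beyond the 3′ end of Cdk1 (chr10:69320725-69321816) was at 0, 27.6, 18.3 and 23.2 in AF9-experienced PBS and at 0 in all 5 AF9-experienced LPS libraries. In naive mice it was at 0, 8.80, 21.7 and 0 after PBS and at 0 in all 3 LPS libraries. The library at 0 in AF9-experienced PBS is the short list. The difference of -17.25 (SE 5.39) missed the threshold in AF9-experienced mice (limma adjusted p = 0.0665), and passed it without that list (-23.00, adjusted p = 0.0103) and without naive PBS replicate 3 (adjusted p = 0.0446). The region entered the test only through 5 PBS lists, the treatment where it is high, so its p-values cannot stand as support for a fall. Full lists held a peak there in 11 of 16 libraries, among them 2 of 3 naive LPS and 3 of 5 AF9-experienced LPS libraries.

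A region 11.4 kb upstream of E2f2 (chr4:136160088-136160874) was at 30.6, 19, 7.28 and 18.2 in AF9-experienced PBS and at 17.0, 0, 0, 0 and 0 after LPS (difference -15.37, SE 5.10, adjusted p = 0.0853). It passed the threshold without AF9-experienced LPS replicate 1 (-18.76, adjusted p = 0.0278), the only library of that group above 0. Only 1 naive and 1 AF9-experienced LPS library had a level above 0, fewer than the 3 lists the test required. The region thus entered the test only through PBS lists, the treatment where it is high in AF9-experienced mice. Its p-values for LPS against PBS therefore cannot stand as support for a fall. In the full lists 14 of 16 libraries held a peak there.

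**Figure D4:**
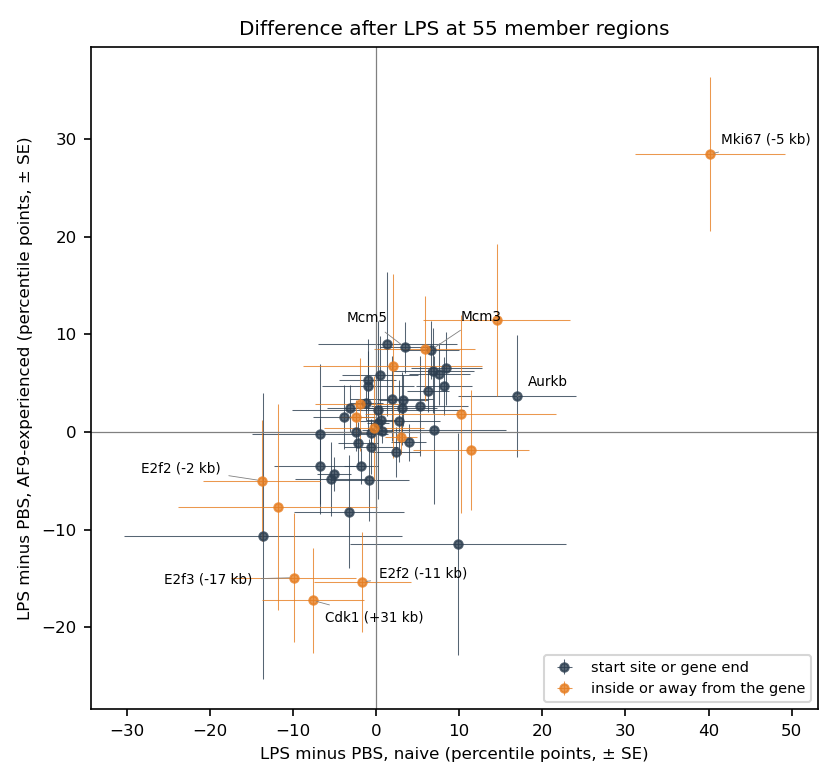
Difference LPS minus PBS in percentile points (± SE from the fit) in naive mice (horizontal) and AF9-experienced mice (vertical) for the 55 regions, coloured by position. The Mki67 region at 40.19 and 28.46 stands apart, and the 40 start-site and gene-end regions lie between -13.59 and 16.99 in naive and between -11.45 and 9.03 in AF9-experienced mice.

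In the plot of LPS differences the contrasts share no library. Of the 55 regions, 5 did not overlap between PBS and LPS in naive mice (the Mki67 upstream region, E2f1, E2f2 inside the gene, Aurka and Aurkb) and 5 in AF9-experienced mice (the Mki67 upstream region, E2f1, E2f8, Mcm3 and Mcm5). Among all tested regions 12.3% and 9.55% did not overlap, where 3.22% and 5.18% were called. Aurkb, the kinase of the chromosomal passenger complex, was at 40.4, 49.4, 45.4 and 59.3 in naive PBS and at 64.8, 69.0 and 63.1 in naive LPS. Its difference of 16.99 (SE 7.11) had an adjusted p of 0.228, and in AF9-experienced mice it was 3.66 (SE 6.25).

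Between AF9-experienced and naive mice no member region passed the test. After PBS, 0 of 55 regions were called, as were 0.0% of all regions, and 2 of 55 had an unadjusted p under 0.05 (limma), against 3.20% of all. These were the E2f2 region 11.4 kb upstream, at 0, 0, 2.65 and 8.68 in naive PBS against the AF9-experienced PBS levels above (difference 15.93, SE 5.38, adjusted p = 1), and the Mki67 start site. The Mki67 start was at 88.1, 83.6, 81.3 and 80.1 in naive PBS and at 72.4, 73.9, 73.9 and 77.0 in AF9-experienced PBS. These groups did not overlap, and the difference was -8.99 (SE 3.15, adjusted p = 1). Next came the distal Ccne1 region, with a difference of 3.60 (SE 1.77, adjusted p = 1).

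After LPS, 0 of 55 regions were called, beside 0.0127% of all regions, and 0 of 55 had an unadjusted p under 0.05 (limma), against 5.39% of all. The smallest p-values were those of Orc1, an origin recognition subunit (4.75, SE 2.62, adjusted p = 0.944), the E2f8 start (-3.96, SE 2.42, adjusted p = 0.969) and the Mki67 upstream region (-14.02, SE 8.61, adjusted p = 0.969). The test of the difference between LPS effects called 0 of 55 regions, beside 0.0% of all, and 0 of 55 had an unadjusted p under 0.05, against 2.94% of all. Its smallest p-values were at the E2f2 region 11.4 kb upstream (-13.71, SE 7.73), Aurka, a spindle pole kinase (-4.98, SE 2.86), and Pcna (4.15, SE 2.67), each with an adjusted p of 1. Over the 55 regions the median difference was 0.00 after PBS, 0.52 after LPS and 0.52 in the interaction.

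Other genes of replication and mitosis, 81 genes with 109 tested regions, gave 1 region called higher after LPS in naive mice and 5 in AF9-experienced mice, with none lower. Over all tested regions 3.22% and 5.18% were called in either direction, and on that measure these counts of 109 were not above the background. Called higher alone were 471 and 810 of all 23554 regions. By that measure the 109 lay under the background in naive and above it in AF9-experienced mice, a difference that was not tested. Their median differences were 1.46 and 0.77. The region called in both lies inside Lin54, a subunit of the complex that binds CHR elements (chr5:100466462-100467387). It was at 8.60 ± 17.2 and 63.3 ± 18.1 in naive mice and at 4.67 ± 5.4 and 72.0 ± 4.79 in AF9-experienced mice. The difference was 54.68 in naive mice (limma adjusted p = 0.00209) and 67.34 in AF9-experienced mice (adjusted p = 7.75e-05). In AF9-experienced mice the others were a region 22.3 kb from Nek2, a centrosome kinase (45.01, adjusted p = 0.00380), a region 6.04 kb from Ndc80, of the kinetochore (33.71, adjusted p = 0.00451), a region 39.1 kb from Incenp, of the passenger complex (19.44, adjusted p = 0.00618), and the start of Chaf1a, a histone chaperone of the replication fork (26.33, adjusted p = 0.0174). These 4 differed by 13.10, 8.27, 9.66 and 15.28 in naive mice without a call there. The regions near Nek2 and Ndc80 held a peak in fewer than 3 PBS lists. Both entered the test only through LPS lists, where they are high, so their p-values cannot stand as support for a rise. No interaction passed the test. As at Mki67, a nearest gene is a link by position, and 4 of these 5 regions lie away from a start.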

How the data were processed

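Chromatin accessibility was measured by ATAC-seq in sorted mouse HSPCs, 32 samples that are 2 technical libraries of each of 16 biological replicates. Omni-ATAC and a Chromium chemistry are both named in the labels' protocols. Per the submitters' processing notes, FastQC, Trim Galore, BWA, Picard and MACS3 were used with build GRCm38. Versions and read filters are not given in the sources used here. In the deposited lists, the authors give each peak's fold enrichment (a ratio to the local background of the same library), its -log10 p and its -log10 q. None is scaled across libraries, so tests used ranks or presence within a list. Fold enrichment is set side by side between libraries only as a description, and its median per list was a covariate in 1 alternative. Read depth is unknown.

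The group and replicate in each list's name matched the sample titles. From every list the 19100 autosomal peaks with the highest -log10 p were kept, and those overlapping across libraries were merged into 31846 regions. For the 23554 regions found in 3 or more lists, the percentile rank (0 where a library held none) was fitted with limma 3.58.1 in R 4.3.3 (trend and robust options, 1 mean per group, Benjamini-Hochberg over all regions), after the fit was tested on simulated data. A rank can move because others do, so differences are in percentile points. Gene models are RefSeq GRCm38.p6 without strand. Start sites and strand came from the promoter table, and a region within 1 kb of a start or gene end was counted as there. P-values measure the spread between samples labelled as biological replicates.

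The genes and lists were chosen with earlier results of these data known. Genes were named by rule: every called region, the 3 smallest p-values per contrast (in each direction for LPS), 12 set genes (Mki67, Top2a, Cdk1, Ccnb1, Mcm2, Mcm5, Pcna, Rrm2, E2f1, E2f2, Rb1 and Foxm1), the strongest and weakest of each role, and genes without a peak. Plk1, Aurkb, other Mcm genes and Ccne1 at its start were named after their values were seen. Alternatives were other rankings, list lengths, presence, windows, filters, covariates, weights, fits and left-out libraries. Raw reads were not used here.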

Additional observations from a re-analysis of the deposited data

Results flagged for a closer look

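Among the 28 named regions, 12 of 83 tests within groups of 4 or 5 libraries found one library far from the others. Chance flags about 1 in 20.

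At the Mki67 region 5.07 kb upstream, naive PBS replicate 4 was at 21.4 and AF9-experienced PBS replicate 1 at 12.3, where the other PBS libraries of each group were at 0. At the E2f2 region 11.4 kb upstream, AF9-experienced LPS replicate 1 was at 17.0 and the other 4 at 0. E2f1 was at 98.7 in naive PBS replicate 1 (the others from 94.6 to 95.2) and at 87.2 in AF9-experienced LPS replicate 3 (the others from 91.3 to 92.8). The region 16.8 kb upstream of E2f3 was at 61.0 in naive PBS replicate 4 (the others from 49.2 to 49.9), and Pcna was at 94.1 there (the others from 95.4 to 95.6).

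The short AF9-experienced PBS list, replicate 1, was low at Orc1 (86.0, the others from 89.1 to 89.7), Mcm2 (40.6, the others from 61.9 to 65.5), Rb1 (0, the others from 56.1 to 65.3) and Mybl2 (92.1, the others from 96.7 to 97.4). The short naive PBS list, replicate 1, was low at Kif11 (98.2, the others from 99.7 to 99.8).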

How the results depend on the processing

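The count of member regions called after LPS, 1 in each background, changed with the ranking and the weight given to libraries. It was 0 in both backgrounds when peaks were ranked by fold enrichment, with fewer peaks per list (where the Mki67 region was not among those tested), and by presence (at -log10 q of at least 5, or in full lists). In these settings at most 0.451% of all regions were called in naive and 1.69% in AF9-experienced mice. It was 7 of 108 regions in naive and 8 of 108 in AF9-experienced mice without the 3 shortest lists, where 6.73% and 10.5% of all regions were called. With median fold enrichment as a covariate it was 2 and 4 of 55, where 4.80% and 6.99% of all regions were called. With library weights it was 6 and 6 of 55 (10.9% each), where 13.7% and 17.4% of all regions were called. The fit of the 2 groups alone gave 0 in naive mice (0.585% of all regions). Leaving out libraries with 2 or more chromosome Y peaks gave 0 in AF9-experienced mice (5.27% of all regions). Leaving out 1 library at a time gave 0 to 3 calls in naive and 0 to 2 in AF9-experienced mice. The share of all regions called then ran from 1.47% to 4.86% and from 2.66% to 7.05%. The cause of these changes was not tested. Without the short lists the calls included the stronger E2f3 start (4.48 and 2.48), a region inside E2f3 (-37.08 and -26.79) and a region at a gene end of E2f8 (38.34 and 39.75). Counts for the other contrasts were 0 under all alternatives that could be run. For these named differences, 520 of 558 alternative values kept their direction and their side of the threshold, 18 lost and 16 gained a call, and 4 changed sign: E2f1 ranked by fold enrichment (19.8 in naive and 31.0 in AF9-experienced mice), and the interaction at the E2f2 region 11.4 kb upstream by presence (8.33 in both forms).

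Replicate numbers are shared between PBS and LPS, but the ranks of same-numbered samples did not deviate together (correlations from -0.215 to 0.0407). Such correlations cannot exclude a shared batch or donor, and the labels do not say whether same-numbered samples are paired. With a replicate block, 1 member region was called in each LPS contrast and 0 in the others, at Mki67 with 42.0 (adjusted p = 0.0206) and 32.2 (adjusted p = 0.0342). Leaving out libraries with chromosome Y peaks could not be fitted for naive LPS, where all 3 have them. Depth is not recorded in the lists, so 0 means no peak among the 19100 strongest, not closed chromatin.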
